A study of Homo sapiens with 13 samples.

Results

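The histone genes of the established human leukemia line CCRF-CEM (T cell acute lymphoblastic) were followed in parental cells (CEM PA) and in a subline that tolerates FK866 (CEM RES). FK866 blocks NAMPT, the enzyme that returns nicotinamide to the NAD pool. The array carried 106 probes, of 34127 in all, whose gene name begins with HIST and a cluster number from 1 to 4 followed by H, or with H1F, H2AF, H2BF or H3F. They name 87 of 25940 genes. The HIST names give 69 genes of the replication-dependent clusters, and the other names give 18 genes, called variants here.

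Total RNA was hybridised to 13 one-colour arrays. CEM PA was mock treated in 3 samples and given 5 nM FK866 for 48 h in 2 samples. CEM RES had been selected in rising FK866, resisted 100 nM and was maintained in medium with 100 nM of the drug. For the arrays it was mock treated (DMSO, 48 h) in 4 samples or given 5 nM FK866 for 48 h in 4 samples. The labels name the samples of a group biological replicates and do not say whether CEM RES is 1 clone, and how long mock CEM RES had been free of drug is not given in the sources used here. All values are log2 intensities after quantile normalization. Between 26457 and 33239 of 43118 spots were well above background on an array, and 0 were saturated. All 10 T cell line markers examined (among them CD3D, CD5, CD7 and LCK) were well above background on 13 of 13 arrays, and EPCAM, COL1A1 and COL3A1 on 0. CD79A and CD14, which mark other blood lineages, were also above background on all 13.

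Genes entered the tests if 1 of their probes exceeded background clearly on all arrays of some group. This left 76 of the 87 histone genes, 60 of the 69 replication-dependent genes and 16 of the 18 variants. The 9 replication-dependent genes left out were HIST1H1A, HIST1H1T, HIST1H2AA, HIST1H2APS1, HIST1H2BA, HIST1H4G, HIST2H2BA, HIST2H4A and HIST3H2A, and the 2 variants were H2AFB3 and H2BFWT. Of these 11, none was above background on more than 7 arrays. HIST3H2BB and HIST4H4 passed only through CEM RES, and H1FOO only through CEM PA. RefSeq lists H1FX-AS1 as a long non-coding RNA, and H2BFXP and HIST1H2APS1 as transcribed pseudogenes, so these 3 members of the rule code for no histone.

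Replication-dependent histone genes supply the core histones H2A, H2B, H3 and H4 and the linker histone H1 for newly made DNA, and their mRNAs rise in S phase and are destroyed when replication stops. These mRNAs are not polyadenylated. They end just after a stem-loop that is bound by SLBP and cut with the help of the U7 snRNP, whose proteins include LSM10 and LSM11. Variant genes such as H2AFZ and H3F3B make histones that are placed in chromatin outside replication, and their mRNAs carry a poly(A) tail. H2AFX, whose product is phosphorylated at DNA breaks, can make both forms of mRNA. Kits for one-colour labelling on this platform commonly start cDNA synthesis from a primer that binds poly(A) tails, and the primer used is not given in the sources used here.

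The end of a replication-dependent mRNA lies within a few probes. A stem-loop of the histone 3′ consensus was present in 6 of the 81 replication-dependent probes, and these stretches are shown because they mark the processed end of the transcript. Capitals mark the stem-loop, and each run is the strand of the mRNA, 5′ to 3′.
HIST1H2BF (hg19, chr6:26200153-26200212): tcccaaaGGCTCTTTTAAGAGCCa
HIST2H3A (hg19, chr1:149824626-149824685): tccaaaaGGCTCTTTTCAGAGCCacc
HIST1H4K (hg19, chr6:27798954-27799013): aacaaaaGGCCCTTTTTAGGGCCcc
HIST1H3H (hg19, chr6:27778255-27778314): acccaaaGGCTCTTTTCAGAGCCaccca
HIST1H2AI (hg19, chr6:27776386-27776445): aaccaaaGGCTCTTTTCAGAGCCaccta
HIST1H2BE (hg19, chr6:26184399-26184458): acccaaaGGCTCTTTTCAGAGCCactca
For mock CEM RES against mock CEM PA, 5 of the 6 probes gave log2 fold changes from 2.73 (HIST1H2AI) to 4.94 (HIST1H2BF), and the HIST1H2BE probe gave 0.058.

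The first comparison asks how the resistant and parental lines differ without drug. Probes for replication-dependent histone genes gave far more signal in mock CEM RES than in mock CEM PA. Of the 60 tested, 56 were higher and 0 lower at the double threshold of unadjusted p under 0.05 and absolute log2 fold change over 0.75, while 17.6% of 17594 genes were called higher and 17.1% lower. At a Benjamini-Hochberg adjusted p under 0.05 (limma), 55 were higher and 0 lower, against 24.7% and 23% of all genes. For 56 genes every CEM RES array lay above every CEM PA array, which held for 25.4% of all genes, while 23.4% of all genes lay lower without overlap. Their median log2 fold change was 3.60, or 12.1-fold, and the median over all genes was 0.04. With no filter on dim probes, so that all 69 entered, 57 were higher and the median was 3.32. Of the 16 variants 0 were higher and 6 lower at the double threshold, and their median was -0.16. In RNA from whole cultures, more cells in S phase and more histone mRNA per cell in CEM RES cannot be told apart.

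**Figure D1:**
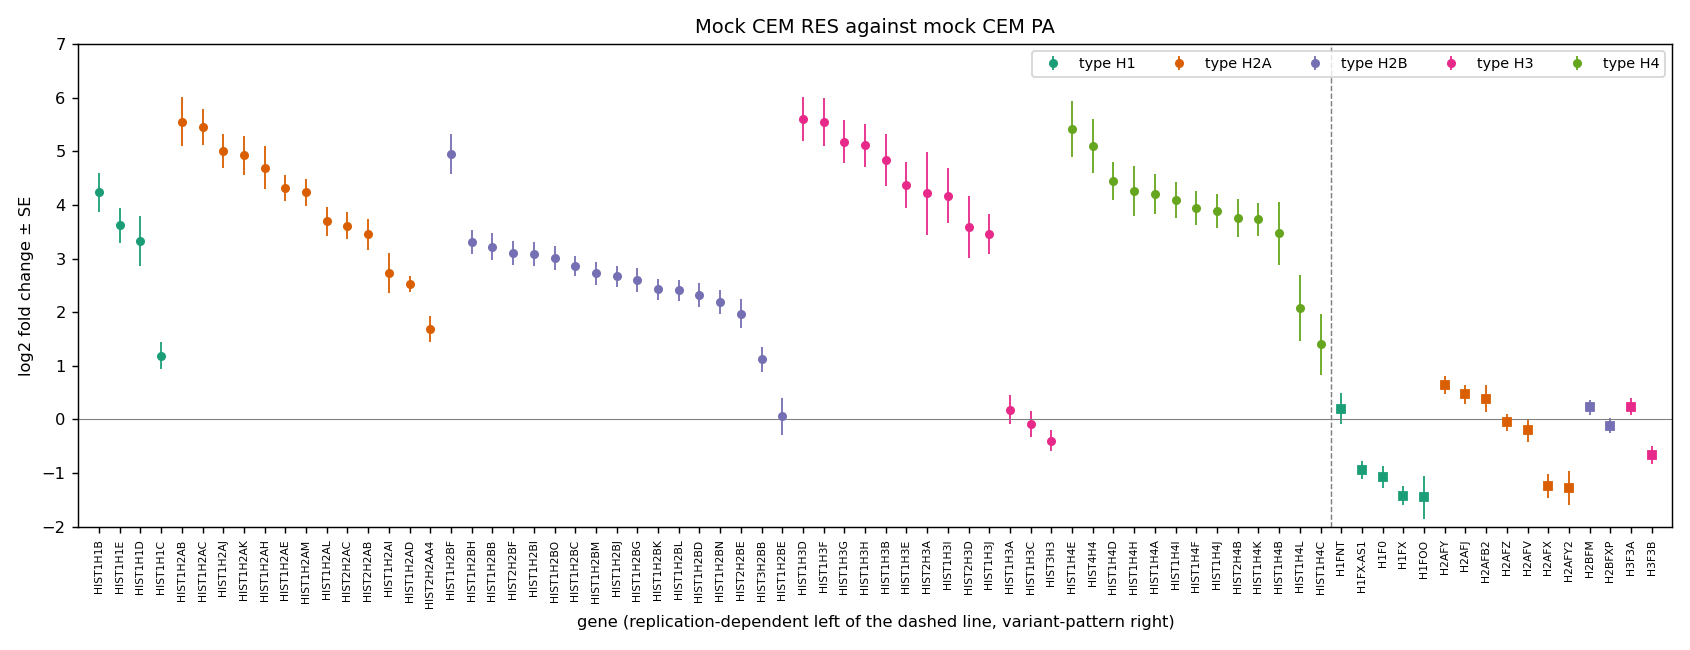
Log2 fold change with its standard error (y axis) of each of the 76 tested histone genes (x axis), mock CEM RES against mock CEM PA; circles are replication-dependent genes and squares variants, coloured by histone type. Nearly all replication-dependent genes lie between 1 and 6, and the variants lie between -1.45 and 0.64.

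All 5 histone types were represented. Over all genes the double threshold called 17.6% higher and 17.1% lower. All 13 H2A genes were higher, with a median log2 fold change of 4.23 and a range from 1.69 (HIST2H2AA4) to 5.55 (HIST1H2AB). All 13 H4 genes were higher as well, with a median of 3.95. Of the 13 H3 genes 10 were higher, and the median was 4.22. The 17 H2B genes had a median of 2.67 with 16 higher. The 4 linker histone genes were all higher, with a median of 3.47. A difference between types was not tested.

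HIST1H2AB, which codes for an H2A, read 6.27, 8.33 and 6.97 on the mock CEM PA arrays and 12.76, 12.20, 13.13 and 12.86 on the mock CEM RES arrays. The lowest resistant array lay far above the highest parental one. The log2 fold change was 5.55 ± 0.46 (SE), or 46.8-fold, at an adjusted p of 4.59e-06. HIST1H3D, which codes for a canonical H3, read 9.98, 12.08 and 11.12 against 16.78, 16.33, 16.83 and 16.67. It had the largest difference of the 76 genes, 5.60 ± 0.41 on the log2 scale at an adjusted p of 2.13e-06. The H4 gene HIST1H4E read 8.26, 10.95 and 10.85 in mock CEM PA and 15.33, 15.07, 15.75 and 15.62 in mock CEM RES. The groups did not overlap, although replicate 1 of mock CEM PA was more than 2 log2 units below the others, and the log2 fold change was 5.42 ± 0.52 (adjusted p 1.21e-05).

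Among H2B genes HIST1H2BF stood apart from its relatives. It read 5.90, 7.93 and 6.61 in mock CEM PA and 11.58, 11.43, 12.00 and 12.00 in mock CEM RES, a difference of 4.94 ± 0.38 (adjusted p 2.84e-06), while the next H2B gene, HIST1H2BH, differed by 3.31 ± 0.23. The linker gene HIST1H1B read 9.70, 11.43 and 10.18 against 14.96, 14.11, 14.91 and 14.70. These groups were separate, with a log2 fold change of 4.23 ± 0.37. HIST1H1C, a linker histone gene known to yield polyadenylated mRNA in differentiated cells, read 14.03, 15.21 and 14.67 against 15.98, 15.55, 15.71 and 16.05 and had the smallest difference of the 4 linker genes, 1.19 ± 0.25 (adjusted p 0.00218). HIST1H1C, HIST1H2AC, HIST1H2BD, HIST1H2BK and HIST2H2BE are listed as genes that can make polyadenylated mRNA. By their brightest probes all were higher, from 1.19 to 5.45, where 17.6% of all genes were called higher. More distant probes of HIST1H2AC, HIST1H2BK and HIST2H2BE, described below, gave -0.58, 0.36 and -2.23.

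HIST4H4, the only gene of its cluster, was near background in the parental line. Of 3 mock CEM PA arrays it exceeded background on 1, and of 4 mock CEM RES arrays on 4, where it read 6.83, 6.46, 7.74 and 8.04. It was at least 15.3-fold higher in mock CEM RES, counting a dim array at the lowest signal that was well above background. HIST3H2BB, which exceeded background on 2 of the 3 parental arrays, was at least 1.89-fold higher by the same reckoning. HIST1H4C, which was bright on every array, read 14.42, 17.32 and 17.31 against 17.66, 17.66, 17.86 and 17.82. Its groups did not overlap, yet replicate 1 of mock CEM PA lay almost 3 log2 units below the other 2, and the difference of 1.40 ± 0.57 had an adjusted p of 0.0612.

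The replication-dependent genes not higher at the double threshold were HIST1H2BE (0.058), HIST1H3A (0.19), HIST1H3C (-0.084) and HIST3H3 (-0.39). HIST1H2BE read 4.94, 4.82 and 4.71 in mock CEM PA and 5.53, 4.22, 5.43 and 4.35 in mock CEM RES, and HIST1H3A read 10.62, 10.64 and 10.69 against 11.71, 10.34, 10.57 and 10.72. HIST1H3C read 12.25, 11.88 and 11.57 in mock CEM PA and 12.19, 11.41, 12.06 and 11.61 in mock CEM RES, and in all 3 genes the groups overlapped. HIST3H3, an H3 gene known from testis, read 15.73, 15.44 and 15.05 against 15.14, 14.96, 15.15 and 14.82, which also overlap. The probes of HIST1H3A and HIST3H3 share a stretch with probes of H3F3A, a variant gene for H3.3, and the stretches are shown because these 2 probes lay, with HIST1H3C, apart from the other H3 genes in value. Other H3 probes share such stretches and did not lie apart, since the HIST1H3J probe shares 17 bases with an H3F3A probe and gave 3.46, and the HIST1H3F probe shares 14 with an H3F3B probe and gave 5.54. Capitals mark the longest run that the paired probes share, 19 and 14 bases.
HIST1H3A: ATCAGAAGTCCACTGAACTgcttattcgta
H3F3A: acgttATCAGAAGTCCACTGAACTtctgat
HIST3H3: tgtgtgtcATCCATGCCAAACGggtcacca
H3F3A, second probe: ctgtgtgctATCCATGCCAAACGtgtaaca
Shared stretches are common in this family. Of the 60 replication-dependent probes used, 25 share a run of at least 20 bases with a probe of another histone gene and 7 a run of at least 30, so values of near-identical genes cannot be fully told apart.

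Some genes had probes at different places that gave different values. HIST1H2AC had 3 probes. The one over its start codon (hg19, chr6:26124461-26124520) gave a log2 fold change of 5.45 between the mock lines, and the one 58 bases upstream of it gave 4.06. The third, 14361 bases further along the same strand (chr6:26138822-26138881), gave -0.58 (adjusted p 0.00719 over all kept probes). It was well above background on all 13 arrays, with group means of 8.11 in mock CEM PA and 7.53 in mock CEM RES. The first 30 bases of the probe at the start codon (ATG, in capitals) and of the distant probe show 2 places of 1 gene that differed in opposite directions.
HIST1H2AC, start codon: ATGtctggacgtggtaagcaaggaggcaaa
HIST1H2AC, distant: gcattatgcaaatgcattatattttatgta
HIST1H2BK had 2 kept probes. The one at chr6:27114437-27114496 gave 2.43 (adjusted p 3.75e-06), and the other, 8246 bases downstream, gave 0.36 (adjusted p 0.102). For HIST2H2BE the probe at chr1:149858101-149858160 gave 1.97, while the probe 1037 bases downstream gave -2.23 (adjusted p 0.00272). The latter exceeded background on 3 of 3 parental and 0 of 4 resistant mock arrays, and was at least 2.02-fold lower in the resistant line. HIST2H2BF had a second kept probe 386438 bases away, above background on 2 arrays of each mock group, at -0.12 (adjusted p 0.781) against 3.10 for its brightest probe.

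Among replication-dependent genes with kept probes close together, HIST1H2AM, HIST1H3H, HIST1H4A, HIST1H4D and HIST1H4K each had 2 kept probes within 250 bases of each other, and all 10 gave log2 fold changes between 2.63 and 5.48. HIST1H4L, with probes 105 bases apart, gave 2.07 and 3.79. Variants were mixed in this respect. The 2 H2AFV probes, 6399 bases apart, gave -0.20 and -0.22, the 2 H2AFB2 probes, 9 bases apart, gave 0.39 and -0.06, and 2 of the H3F3A probes, 535 bases apart, gave 0.24 and -0.76. The replication-dependent genes with distant probes were picked after their values were seen.

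**Figure D2:**
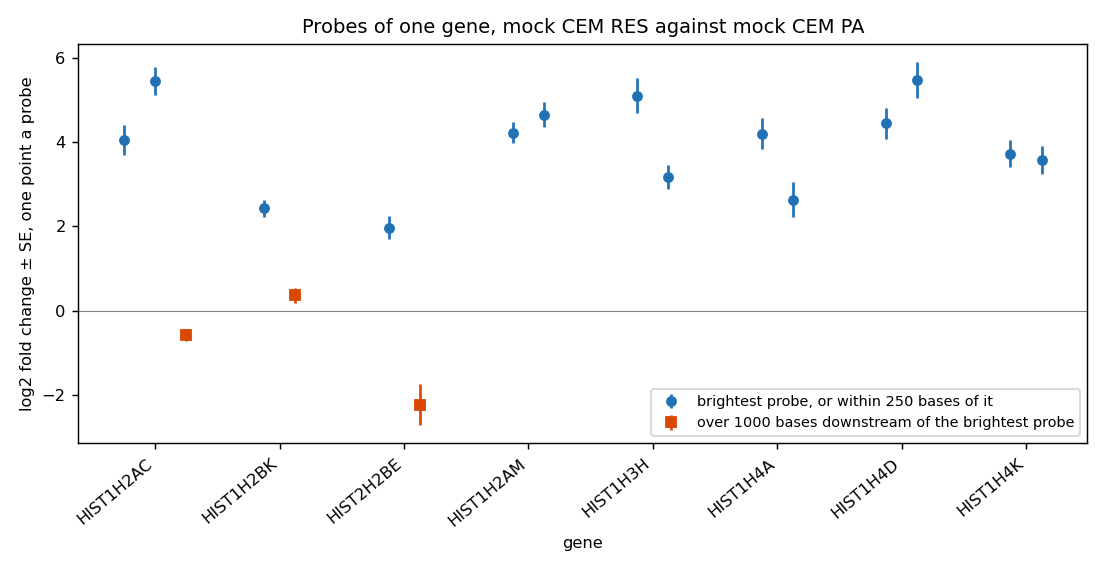
Log2 fold change with its standard error (y axis) of each kept probe of 8 replication-dependent genes (x axis), mock CEM RES against mock CEM PA. The 3 squares, probes over 1 kb downstream of the brightest probe of their gene, lie at 0.36, -0.58 and -2.23 (this one not well above background on the mock CEM RES arrays), and all circles lie at or above 1.97.

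The replication-dependent genes form clusters, and the difference was not bound to one of them. Of the 49 tested HIST1 genes on chromosome 6, 46 were higher and the median was 3.70 on the log2 scale, and of the 8 HIST2 genes on chromosome 1, 8 were higher and the median was 3.52. Within HIST1, genes separated by gaps over 200 kb formed 3 blocks. Their medians were 3.62 over 29 genes, 3.38 over 4 genes and 3.71 over 16 genes. Between the outermost HIST1 probes, 21 other genes or transcripts were tested, of which 6 were higher and 5 lower, with a median of 0.38. Over all genes 17.6% were called higher and 17.1% lower. Among the 21, BTN3A2, a butyrophilin, had a log2 fold change of 0.98 and its neighbour BTN2A2 of -1.01, while a transcript without a gene symbol in the files (ENST00000358739) reached 5.92.

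Promoters are shown for 3 genes that were higher in mock CEM RES and for H2AFX, which was lower, and were picked after their values were seen. The sequences are RefSeq's, GRCh38.p14, 250 bases up to the transcription start, 5′ to 3′ in the direction of transcription. Capitals mark CCAAT, the TATA box motif TATAAA, and the octamer, ATTTGCAT, on either strand. None of the 3 motifs contains another.
HIST1H2AB (chr6:26033619-26033868, minus strand): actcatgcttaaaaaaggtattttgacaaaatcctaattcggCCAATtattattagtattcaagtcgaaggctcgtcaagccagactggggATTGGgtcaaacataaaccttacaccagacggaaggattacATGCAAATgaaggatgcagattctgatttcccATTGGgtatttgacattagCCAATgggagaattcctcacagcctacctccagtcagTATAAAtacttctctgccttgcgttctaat
HIST1H2BF (chr6:26199266-26199515, plus strand): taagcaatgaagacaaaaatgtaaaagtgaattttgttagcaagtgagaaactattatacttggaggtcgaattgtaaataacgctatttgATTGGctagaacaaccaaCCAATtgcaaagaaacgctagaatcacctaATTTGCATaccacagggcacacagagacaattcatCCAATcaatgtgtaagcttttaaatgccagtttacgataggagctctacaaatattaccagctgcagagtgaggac
HIST1H4E (chr6:26204360-26204609, plus strand): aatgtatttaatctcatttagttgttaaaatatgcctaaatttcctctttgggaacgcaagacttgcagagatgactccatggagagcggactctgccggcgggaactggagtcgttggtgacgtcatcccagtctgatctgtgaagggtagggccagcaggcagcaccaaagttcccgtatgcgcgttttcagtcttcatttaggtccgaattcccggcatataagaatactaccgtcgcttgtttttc
H2AFX (chr11:119095466-119095715, minus strand): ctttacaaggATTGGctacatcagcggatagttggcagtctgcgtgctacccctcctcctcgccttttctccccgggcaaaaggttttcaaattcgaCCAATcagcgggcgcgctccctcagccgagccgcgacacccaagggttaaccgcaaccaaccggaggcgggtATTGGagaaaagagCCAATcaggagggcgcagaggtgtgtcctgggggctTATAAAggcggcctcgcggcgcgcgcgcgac
The window of HIST1H2BF overlaps that of HIST1H3D (chr6:26199294-26199543), which reads away from it on the minus strand. HIST1H2AB held all 3 motifs, HIST1H2BF CCAAT and the octamer, and H2AFX CCAAT and TATAAA. HIST1H4E held none of the 3 in this window and differed between the lines by 5.42.

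Of 55 tested replication-dependent genes with a RefSeq promoter, 47 held CCAAT, 36 TATAAA and 23 the octamer, which is 85.5%, 65.5% and 41.8% of them. Over 27305 promoters in all the shares were 33%, 11.1% and 1.66%. Of the 13 variants with a promoter, 10 held CCAAT, 4 TATAAA and 1, H3F3B, the octamer. The octamer, which POU2F1 can bind, was in 13 of 17 H2B and 9 of 12 H2A promoters but in 1 of 11 H3 and 0 of 11 H4 promoters. A match is a description of the letters only.

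Variants of each type were examined next. H2AFX read 14.87, 15.55 and 15.42 in mock CEM PA and 14.56, 14.00, 13.66 and 13.95 in mock CEM RES. Every resistant array was below every parental one, and the log2 fold change was -1.24 ± 0.22 (adjusted p 7.45e-04). H1FX, a linker histone variant, read 11.93, 11.79 and 11.79 against 10.54, 10.14, 10.21 and 10.79. It was 2.67-fold lower, with a log2 fold change of -1.42 ± 0.17 (adjusted p 5.74e-05). H1F0, the linker histone that accumulates in differentiated and resting cells, read 7.98, 7.44 and 7.59 against 6.82, 6.52, 6.50 and 6.58 and was also lower (-1.07 ± 0.20, adjusted p 0.00103). The other members that fell were H2AFY2 (-1.28), which codes for a macroH2A, the antisense RNA H1FX-AS1 (-0.94) and the oocyte linker histone gene H1FOO. H1FOO exceeded background on 3 of 3 parental and 2 of 4 resistant mock arrays, and was at least 2.48-fold lower in the resistant line.

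H2AFZ, which codes for the variant H2A.Z found at promoters, read 16.21, 16.15 and 15.74 in mock CEM PA and 16.10, 15.76, 16.12 and 15.94 in mock CEM RES. These ranges overlap, with a log2 fold change of -0.056 ± 0.16 whose sign turned under 75th percentile scaling (0.18). H2AFV, its close relative, differed by -0.20 ± 0.22. H2AFY, the other macroH2A gene, was below the fold limit at 0.64 ± 0.17, with an adjusted p of 0.0083. H2AFJ differed by 0.47 ± 0.17 (adjusted p 0.0398).

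H3F3A and H3F3B both code for H3.3. H3F3A read 17.46, 17.50 and 17.37 in mock CEM PA and 18.01, 17.73, 17.36 and 17.64 in mock CEM RES, a difference of 0.24 ± 0.16 within overlapping groups. Its other 2 probes gave -0.41 and -0.76, so its direction depends on the probe. H3F3B read 16.67, 16.72 and 16.32 against 16.09, 15.91, 15.96 and 15.67. These did not overlap and differed by -0.66 ± 0.17 (adjusted p 0.00616), short of the fold limit, and its second probe gave -0.08.

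**Figure D3:**
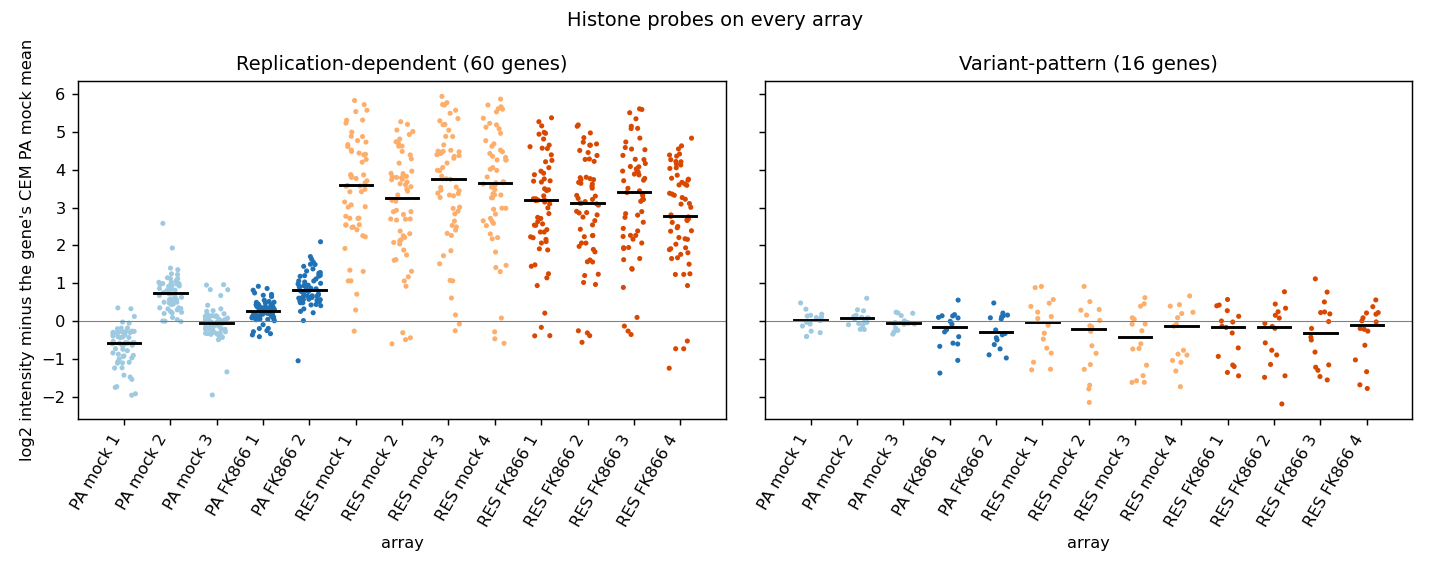
Log2 intensity of every tested histone gene minus that gene's mock CEM PA mean (y axis) on each of 13 arrays (x axis); dots are genes, bars the median on an array, left the 60 replication-dependent genes and right the 16 variants. Medians of the replication-dependent genes on CEM RES arrays all lie above those on CEM PA arrays, and the parental arrays spread more than the resistant ones.

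The parental arrays differed among themselves in these genes. The median log2 intensity over the 60 replication-dependent genes was 9.472, 10.701 and 9.948 on the mock CEM PA arrays and 13.450, 13.080, 13.717 and 13.561 on the mock CEM RES arrays. The lines were far apart on this measure, but within mock CEM PA the arrays spread over more than 1 log2 unit. Replicate 1 was the lowest of the 3 for 51 of 60 genes, and replicate 2 was the highest for 56. The median SD of a gene over the mock CEM PA arrays was 0.71 for replication-dependent genes, 0.22 for variants and 0.24 for all genes. Over the mock CEM RES arrays it was 0.30, 0.27 and 0.28.

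The arrays were scanned in 3 sessions. The first held replicate 1 of mock and of FK866-exposed CEM PA, the second the other 3 CEM PA arrays and the third all of CEM RES, so line and session cannot be told apart. Within CEM PA, the replication-dependent genes were higher in the second session than in the first by a median of 0.87 in mock (57 of 60 genes) and 0.58 under FK866 (56 of 60), against -0.02 and -0.02 for all genes.

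snoRNAs and scaRNAs, small RNAs that guide the modification of other RNAs and mostly have no poly(A) tail, were also higher in CEM RES. This list was chosen after its values were seen. Of 45 tested, 35 were higher and 0 lower in mock CEM RES, where 17.6% and 17.1% of all genes were called, with a median log2 fold change of 1.54. On single arrays their median lay between 5.66 and 6.34 in CEM PA and between 6.72 and 7.31 in CEM RES. The part of tail length, priming or RNA preparation in these differences was not tested.

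**Figure D4:**
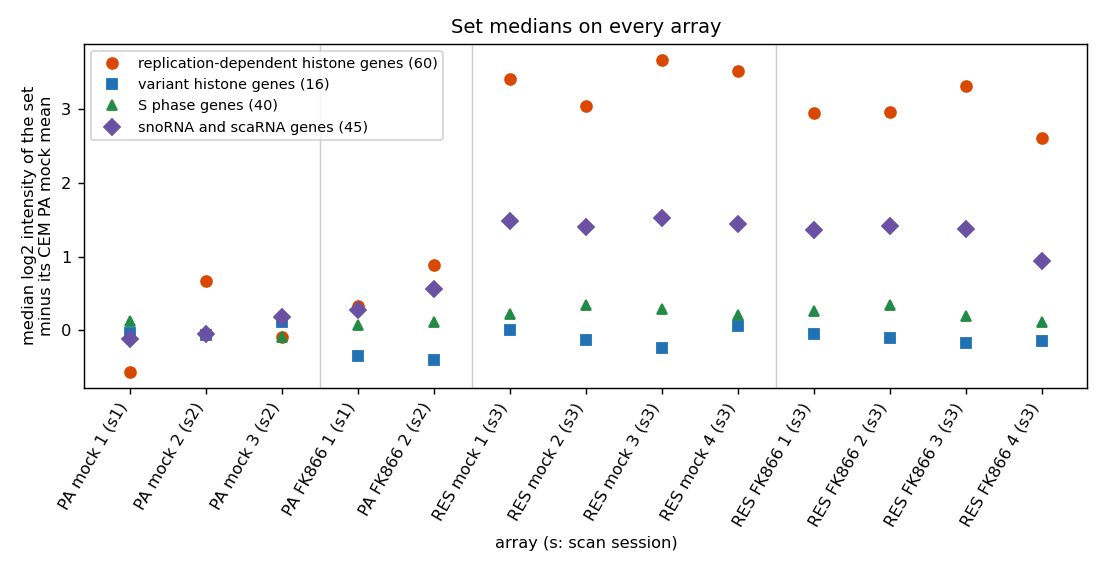
Median log2 intensity of 4 gene sets minus its mean over mock CEM PA (y axis) on each array (x axis, s1 to s3 the scan session). Replication-dependent histone genes and, less, snoRNA and scaRNA genes are higher on all CEM RES arrays, while variants and S phase genes stay within 0.5 of zero.

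Genes that act in S phase or on histones were followed as lists. Of 40 S phase genes tested, 4 were higher in mock CEM RES, among them MCM4, DBF4 and RFC3, and 4 lower, LIG1, POLE, RRM1 and USP1, with a median of 0.04. The double threshold called 17.6% of all genes higher in this comparison and 17.1% lower. MCM4, a subunit of the replicative helicase, had the largest rise (1.20 ± 0.16, adjusted p 1.08e-04). The median level of the list lay between 12.28 and 12.72 on every array.

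Of 36 genes for histone transcription and 3′ end processing, 7 were higher and 8 lower, with a median of -0.13, where 17.6% and 17.1% of all genes were called, so the counts lay near those of all genes. LSM11, a U7 snRNP protein, rose most (2.76 ± 0.20). Its signal exceeded background on 2 of 3 parental and 4 of 4 resistant mock arrays. The other genes that rose were SNRPB (1.43), SNRPE (1.42), CSTF3 (1.09), CPSF3, LSM10 and ZNF473, whose protein also belongs to histone pre-mRNA processing. Genes that fell included the cleavage and polyadenylation factor CPSF1 (-1.91), POU2F1 (-1.77), which codes for the octamer-binding protein OCT1, and SYMPK (-1.13). SLBP differed by 0.19 ± 0.13, NPAT, the coactivator of histone genes, by -0.38 ± 0.17 and CASP8AP2 by 0.19 ± 0.18, none past the threshold.

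Of 36 histone chaperone and deposition genes, 3 were higher (IPO4, SET and VPS72) and 5 lower (HIRA, UBN2, NAP1L1, HJURP and TONSL), with a median of 0.03. Over all genes 17.6% were called higher and 17.1% lower. HIRA, which deposits H3.3 together with the UBN proteins, differed by -1.55 ± 0.30 (adjusted p 0.00121) and UBN2 by -1.55 ± 0.21 (adjusted p 1.08e-04). The chaperones of replication-coupled assembly were below the fold limit, ASF1B at 0.54, CHAF1A at 0.14, CHAF1B at -0.34 and NASP at -0.56, as was DAXX at 0.21. Of 20 further histone-related genes, SETD8, which methylates H4, was higher (1.43), and SUV420H2 (-1.51), EZH2 (-0.82) and DOT1L (-0.81), also histone methyltransferases, were lower. CENPA, the centromeric H3, differed by 0.06 ± 0.13.

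The second question is what FK866 did in the parental line. The replication-dependent genes lay mostly above mock in CEM PA, but few singly passed the test. Of 60, 57 had a log2 fold change above 0, as had 8339 of 17594 genes. The median was 0.52, against -0.02 for all genes. These genes moved together between arrays, with replicate 1 of mock CEM PA the lowest mock array for 51 of 60. A count of signs therefore does not stand for separate replicates. Past the double threshold were 2 higher and 0 lower, where 2.5% of all genes were called higher and 2.97% lower. At an adjusted p under 0.05 the limma fit called 0, where 0.392% of all genes were called higher and 0.119% lower, and 6 of the 60 had an unadjusted p under 0.05, as had 13.5% of all genes. The arrays did not overlap for 5 genes that lay higher and 1 that lay lower, where this held for 15.5% and 18.9% of all genes. With no filter on dim probes, 2 of 69 were higher and the median was 0.50.

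HIST1H2BF read 7.73 and 8.37 under FK866 and 5.90, 7.93 and 6.61 in mock CEM PA. The groups overlap, since replicate 2 of mock lies between the 2 FK866 arrays, and the difference was 1.24 ± 0.45 (p 0.0174, limma, adjusted p 0.249). HIST2H2AB, an H2A gene of the HIST2 cluster, read 10.30 and 10.86 against 9.07, 10.17 and 9.73. Both FK866 arrays were above all 3 mock arrays, with a difference of 0.93 ± 0.35 (p 0.0215, limma, adjusted p 0.271). Neither passed the adjusted threshold.

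These counts differed with the session and the replicates used. Within the first session the median difference of the 60 genes was 0.88 and within the second 0.49. In each, 58 of 60 were above 0, where 8424 and 8440 of 17594 genes were. With the replicate number as a block 12 genes passed the double threshold, all higher, and with session or slide as a block 17, all higher. At the adjusted threshold 0 passed in either. Over all genes these blocks called 6.40% and 5.92%. With replicate 2 of mock CEM PA left out 32 passed, where 5.97% of all genes were called. With replicate 1 of mock CEM PA left out 1 passed, where 6.95% of all genes were called. The median became 0.82 and 0.26 without replicate 1 or 2 of FK866, and 0.26 and 0.87 without replicate 1 or 2 of mock. Neither HIST1H2BF (0.92 and 0.78) nor HIST2H2AB (0.64 and 0.63) passed the double threshold without replicate 2 of FK866 or replicate 1 of mock. The 45 snoRNA and scaRNA genes had a median of 0.39 in the same comparison, and their part was not tested.

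The 16 variants had a median of -0.18, with 11 below 0, as were 9255 of 17594 genes. Past the double threshold 0 were higher and 2 lower, where 2.5% of all genes were called higher and 2.97% lower. Of these 2, H1FX-AS1 codes for no histone, and H1FOO was dim. H1FX-AS1 read 5.01 and 5.07 under FK866 and 6.20, 5.96 and 6.01 in mock CEM PA. The groups were separate, with a difference of -1.01 ± 0.20 (adjusted p 0.0536). H1FX, whose antisense partner this is, read 11.16 and 11.34 against 11.93, 11.79 and 11.79 and differed by -0.59 ± 0.21 (p 0.0144, limma, adjusted p 0.231), short of the fold limit. H1FOO, above background on 1 of 2 FK866 arrays, was the other past the threshold, at least 1.95-fold lower (adjusted p 0.366).

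The variants named throughout stayed within the fold limit in CEM PA. H3F3B read 17.12 and 17.04 under FK866, above all 3 mock arrays, with a difference of 0.51 ± 0.20 (adjusted p 0.282). H3F3A differed by -0.16 ± 0.19, H2AFX by 0.12 ± 0.26, H2AFZ by 0.14 ± 0.19 and H1F0 by -0.10 ± 0.24. Of the lists, CHEK1 (0.85 ± 0.16, adjusted p 0.0489), a replication checkpoint kinase, was the only S phase gene past the double threshold, and WDR33 (1.55 ± 0.21, adjusted p 0.0104), a polyadenylation factor, and LSM11 (1.05) the only processing genes. No chaperone gene passed it, and RNF2 (0.79), an H2A ubiquitin ligase, did so among the further histone-related genes. Over all genes 2.5% were called higher and 2.97% lower. CENPA differed by 0.38 ± 0.15, SLBP by 0.083 ± 0.16 and NPAT by -0.062 ± 0.21.

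In CEM RES the replication-dependent genes lay below mock under FK866. Of 60, 59 had a log2 fold change below 0, as had 9375 of 17594 genes, and these counts of signs are not separate replicates either. The median was -0.42, against -0.01 for all genes. Of the 60, 0 passed the double threshold, which called 0.716% of all genes higher and 0.625% lower, and the limma fit called 0 of 17594 genes at an adjusted p under 0.05. An unadjusted p under 0.05 was reached by 12 of the 60 and by 4.78% of all genes. With no filter on dim probes the median was -0.41 over 69 genes. The 45 snoRNA and scaRNA genes also lay mostly below mock, with a median of -0.24 and 38 below 0, and their part was not tested. With replicate 3 of FK866-exposed or replicate 2 of mock CEM RES left out, 3 of the 60 passed the double threshold. Over all genes these fits called 1.68% and 2.77%. With replicate 1 of FK866-exposed or replicate 3 or 4 of mock CEM RES left out, 1 passed, against 1.39%, 1.09% and 2.28%.

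HIST1H2AL, an H2A gene, read 11.34, 10.94, 11.09 and 10.08 under FK866 and 11.67, 11.67, 11.40 and 11.53 in mock CEM RES. All FK866 arrays were below all mock arrays, with a difference of -0.71 ± 0.25 (p 0.0144, limma, adjusted p 0.996). HIST2H2AC read 13.43, 13.24, 13.44 and 12.59 against 13.77, 13.46, 13.96 and 13.75, also without overlap, and differed by -0.56 ± 0.23. With HIST1H2BF and HIST1H2BL, these were the 4 replication-dependent genes whose groups did not overlap. All 4 were lower, where 1.22% of all genes lay higher without overlap and 1.31% lower. Within the 2 slides of CEM RES the median difference was -0.48 and -0.44. On each, 55 of 60 were below 0, where 8682 and 9668 of 17594 genes were.

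Variants in CEM RES showed no common direction under FK866, with a median of 0.03 over 16 and none past the double threshold. H1F0 read 7.35, 6.89, 6.85 and 7.45 under FK866 against 6.82, 6.52, 6.50 and 6.58 in mock, without overlap, at 0.53 ± 0.19 (p 0.0136, limma, adjusted p 0.996). H2AFX differed by 0.053 ± 0.20, H2AFZ by 0.044 ± 0.15, H3F3A by -0.063 ± 0.14 and H3F3B by -0.046 ± 0.15, and the sign of these 4 turned under at least 1 alternative. No gene of the 4 lists passed the double threshold in CEM RES, where 0.716% of all genes were called higher and 0.625% lower. SLBP differed by 0.14 ± 0.12 and CASP8AP2 by 0.38 ± 0.16.

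**Figure D5:**
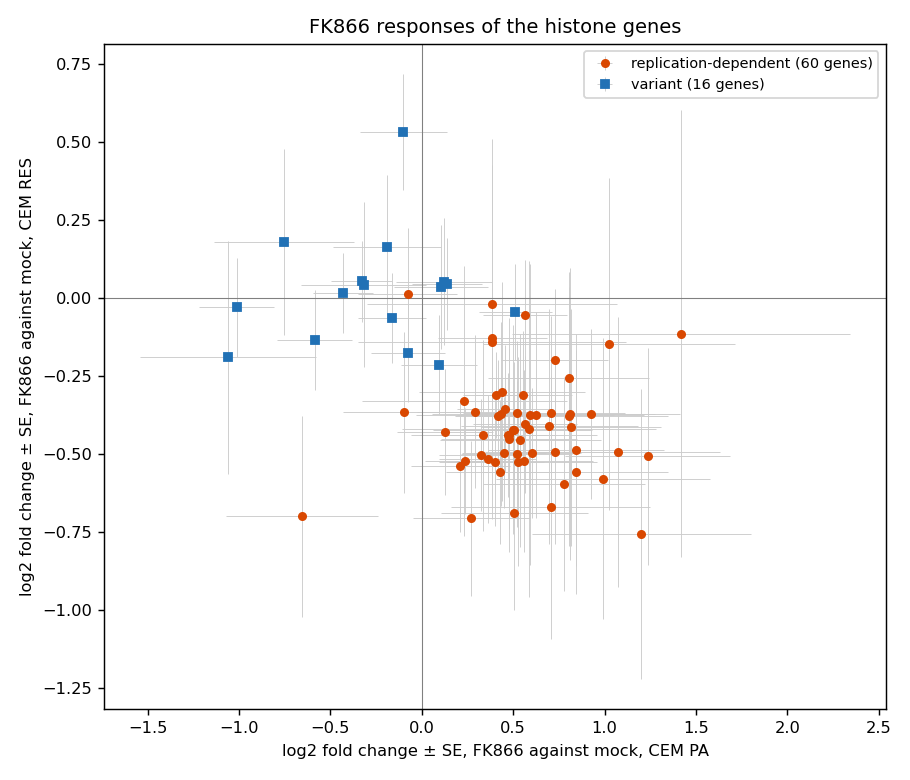
Log2 fold change of FK866 against mock with its standard error in CEM PA (x axis) and CEM RES (y axis) for 60 replication-dependent genes (circles) and 16 variants (squares). Most circles lie right of zero and below zero, with standard errors that reach across zero for many.

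The difference of the FK866 responses, CEM RES minus CEM PA, was tested as an interaction. Of 60 replication-dependent genes, 27 were past the double threshold, all with a lower response in CEM RES, where 3.64% of all genes were called higher and 3.1% lower. At an adjusted p under 0.05 the limma fit called 0 of them, where 0.00568% of all genes were called higher and 0.125% lower. An unadjusted p under 0.05 was reached by 29 of the 60 and by 11.1% of all genes. The lowest adjusted p (limma) of the members was 0.213, that of the non-coding RNA H1FX-AS1. The median was -0.96 over replication-dependent genes, 0.36 over variants and 0.00 over all genes. Over the 45 snoRNA and scaRNA genes it was -0.66.

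The H2B genes held 12 of the 27, the H2A genes 7, the H4 genes 5, the H3 genes 3 and the H1 genes 0. HIST1H2BF had an interaction of -1.74 ± 0.57 (p 0.00959, limma, adjusted p 0.311), from 1.24 in the parental and -0.51 in the resistant line. HIST1H2BH had -1.10 ± 0.34, HIST2H2AB -1.30 ± 0.44, HIST1H4H -1.57 ± 0.71 and HIST1H3E -1.40 ± 0.64. HIST4H4, also among the 27, exceeded background in CEM PA on 1 of 2 FK866 and 1 of 3 mock arrays, so no value is given. Of the variants, H1FX-AS1 was past the double threshold with 0.98 ± 0.26. The replicate block called 43 replication-dependent genes and the session or slide block 49, each with 0 at the adjusted threshold. Over all genes these blocks called 9.27% and 7.71%. With replicate 1, 2 or 3 of mock CEM PA left out, 8, 50 and 12 were called, against 7.51%, 7.11% and 6.36% of all genes. With replicate 4 of FK866-exposed CEM RES left out 16 were called, against 5.21%. With replicate 3 or 4 of mock CEM RES left out 16 and 17 were called, against 6.04% and 7.46%.

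With both lines under FK866, the replication-dependent genes were again higher in CEM RES, with a smaller median. This comparison shares no array with that of the mock lines, but line and scan session cannot be told apart here either. Mock and FK866 samples that share a replicate number also deviated in a correlated way, so these comparisons are not independent of each other. Of 60, 54 were higher and 2 lower at the double threshold, where 15.4% of all genes were called higher and 14.1% lower, and 53 and 2 at an adjusted p under 0.05, against 18.6% and 16.9%. For 56 genes the CEM RES arrays all lay above and for 2 all below the CEM PA arrays, where this held for 31.3% and 26.5% of all genes. The median was 2.69, or 6.47-fold, against 0.09 for all genes. With no filter on dim probes 54 of 69 were higher and the median was 2.29.

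By type, the medians were 3.34 for H2A, 2.97 for H3, 2.80 for H4, 2.80 for H1 and 1.81 for H2B. HIST1H2AB read 7.49 and 8.30 on the CEM PA and 12.18, 12.16, 12.70 and 11.22 on the CEM RES arrays, without overlap and with a difference of 4.17 ± 0.52 (adjusted p 1.40e-04). HIST1H3D read 11.49 and 12.26 against 16.43, 16.24, 16.67 and 15.61 and differed by 4.36 ± 0.47. HIST1H4E read 10.21 and 11.02 against 15.18, 14.87, 15.37 and 14.86, a difference of 4.46 ± 0.59 between separate groups. HIST4H4, above background on 1 of 2 CEM PA arrays, was at least 6.11-fold higher in CEM RES, and HIST3H2BB, also above on 1 of 2, at least 2.17-fold. The genes that fell were 2 H3 genes. HIST1H3C read 12.76 and 12.50 in parental cells against 11.73, 11.58, 11.99 and 11.17 in resistant cells (-1.01 ± 0.28, adjusted p 0.0144), and HIST3H3 16.22 and 15.73 against 15.01, 15.02, 15.14 and 14.67 (-1.01 ± 0.22, adjusted p 0.0038).

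Of the variants, 3 were lower and 0 higher under FK866, where 14.1% of all genes were called lower and 15.4% higher. H2AFX read 15.37 and 15.43 in the parental and 14.34, 14.13, 13.97 and 13.94 in the resistant line, with a log2 fold change of -1.31 ± 0.25 (adjusted p 0.0019). H3F3B read 17.12 and 17.04 against 15.85, 15.99, 16.06 and 15.54, and its difference of -1.22 ± 0.19 was past both limits (adjusted p 5.33e-04). The second H3F3B probe did not share this direction, with group means of 10.17 in CEM PA and 10.30 in CEM RES. H1FX was the other, at -0.96 ± 0.20. In all 3 every CEM RES array was below every CEM PA array. H1F0 differed by -0.43 ± 0.23, H2AFZ by -0.15 ± 0.18 and H3F3A by 0.34 ± 0.18.

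The lists again went both ways under FK866. In this comparison 15.4% of all genes were called higher and 14.1% lower. Of the S phase genes 5 were higher and 6 lower, with RFC3 at 1.13 and USP1 at -0.98. Of the processing genes 6 were higher, led by LSM11 (1.76 ± 0.23, adjusted p 1.68e-04), and 10 lower, led by WDR33 (-2.30 ± 0.20, adjusted p 1.89e-05). Of the chaperone genes EP400 was higher (0.83) and HIRA (-1.48), TONSL and HJURP lower. SLBP differed by 0.24 ± 0.15 and NPAT by 0.011 ± 0.20.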

How the data were processed

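RNA from 13 samples was measured on one-colour Agilent arrays. The authors deposited spot intensity values from Feature Extraction (10.7.7.1 in the submitters' processing notes, 10.7.3.1 in the file headers), corrected for background and not normalized between arrays. The authors also deposited a table of quantile-normalized log2 values, used here as an alternative. Probe coordinates are those of the files (hg19). Precision is limited by the number of arrays and, for dim probes, by the background. No annotation of that build was used, so probes were not assigned to exons or UTRs.

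Intensities were put on the log2 scale, outlier spots were set to missing, control spots removed, arrays quantile normalized and spots of a probe averaged. The brightest of a gene's kept probes stood for it. The 4 groups were fitted together with limma 3.58.1 in R 4.3.3 over 17594 genes, a step tested on simulated data. Calls used the methods' double threshold (p under 0.05, absolute log2 fold change over 0.75), with Benjamini-Hochberg adjusted p beside it. P-values measure the spread between samples within groups, pooled over the 4 groups. For replication-dependent genes the median SD was 0.71 in mock CEM PA, 0.42 in FK866-exposed CEM PA and 0.30 in each CEM RES group. Their p-values within CEM RES therefore also carry the spread of the parental arrays. Promoters and gene classes are from RefSeq, matched by accession.

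Values on every array were to be given for the 5 largest changes by class, type, direction and comparison past the double threshold and for H2AFX, H2AFZ, H3F3A, H3F3B and H1F0, and not every gene so named is printed. Genes of the lists were named by the same threshold. HIST1H3C, HIST3H3, HIST1H2AL, HIST2H2AC, HIST1H4C and HIST1H1C were added for their values. Members and lists were chosen with earlier results of these data known. Some genes of the lists and markers are not reported here by name.

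Samples that share a replicate number deviated from their group means in a correlated way across genes. For parental samples the correlations were 0.44 and 0.34, and for resistant samples 0.22, 0.39, 0.48 and 0.29. Each parental pair was also scanned in the same session, so these correlations cannot separate pairing from session. The main fit did not pair the samples, and pairing entered only through the replicate block. For FK866 in the parental line that block called 12 replication-dependent genes in place of 2. For the difference of the responses it called 43 in place of 27. Over all genes it called 6.40% in place of 5.47%, and 9.27% in place of 6.74%. Alternatives were another scaling, normexp background correction (offset 50), other filters and probe rules, and the deposited table. Array weights, replicate, session and slide blocks, and leaving out each array were also used.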

Additional observations from a re-analysis of the deposited data

Results flagged for a closer look

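In the 2 groups of 4 arrays, 110 sets of values were examined for an array far from the others, and 7 were marked, where chance marks about 5%. In mock CEM RES, replicate 2 was the low array for HIST1H2BH (13.75, the next 14.28), HIST1H3G (15.43, the next 15.99), HIST1H2AE (12.11, the next 12.64) and HIST1H4H (12.07, the next 12.74). Under FK866, replicate 4 of CEM RES was high for HIST1H2AE (12.63, the next 11.97), and replicate 3 for HIST1H4F (12.54, the next 11.75) and HIST1H4H (12.36, the next 12.06).

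The median of the replication-dependent genes on each FK866 array minus the mean of the mock medians ran in opposite directions in the lines. It lay at 0.33 and 0.89 on the CEM PA arrays and between -0.80 and -0.09 on the CEM RES arrays, a difference of -1.06. For H2A genes alone the difference was -1.09, and for H2B genes -0.93. These differences of medians were not tested. In the interaction fit over genes, limma called 0 of 76 histone genes at an adjusted p under 0.05, and 31 had an unadjusted p under 0.05, as had 11.1% of all genes.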

How the results depend on the processing

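Between the mock lines, the number of replication-dependent genes past the double threshold stayed within 1.5 times its value under every alternative run, and it lay between 55 and 56 when single arrays were left out. Between the FK866-exposed lines it lay between 52 and 57. The FK866 comparisons depended more on the settings. In CEM PA the count of 2 became 1 with array weights, 12 with the replicate block and 17 with session or slide as a block, and ran from 1 to 32 when single arrays were left out. The variant count of 2 became 0 with normexp and 1 with the strict filter or the session block, and ran from 1 to 2, being 1 without FK866 replicate 1 or mock replicate 2 or 3. In CEM RES the replication-dependent count of 0 became 1 with array weights and 1 with the slide block, and ran from 0 to 3. For the difference of the responses, the count of 27 became 10 with array weights, 43 with the replicate block and 49 with session or slide blocks, and ran from 5 to 50, and the variant count of 1 became 0 with normexp, 2 with no filter, 2 with array weights and 3 with the replicate block, and ran from 1 to 2, being 2 without replicate 1 of FK866-exposed CEM PA or replicate 1 or 4 of mock CEM RES. Over all genes the replicate block called 6.40% in CEM PA and 9.27% for the difference of the responses. It could not be fitted between lines, which share no replicate. Array weights called 6.89% of all genes in CEM PA, 0.745% in CEM RES and 7.53% for the difference of the responses. The session or slide block called 5.92%, 1.35% and 7.71% in the same order. Of the variants between lines, normexp called 3 in place of 6 for mock, and 75th percentile scaling 5 in place of 3 under FK866. The median of the variants turned sign to 0.021 for mock under 75th percentile scaling, and under FK866 to 0.14 with that scaling, 0.098 with no filter and 0.043 with the strict filter.

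Single genes that turned sign lay close to 0, apart from H3F3A between lines. H3F3A turned with the mean of its probes, from 0.24 to -0.31 between mock lines and from 0.34 to -0.15 under FK866. Its probes differed in direction between mock lines (0.24, -0.41 and -0.76). Between mock lines H2AFZ became 0.18 under 75th percentile scaling, and ran from -0.20 to 0.034 when arrays were left out. In CEM PA, H1F0 became 0.029 and H2AFX -0.031 with array weights, H2AFZ became -0.0081 with the replicate block, and without single arrays these ran from -0.33 to 0.13, from -0.081 to 0.26 and from -0.0081 to 0.23. In CEM RES, 75th percentile scaling gave -0.014 for H2AFX and -0.044 for H2AFZ, normexp gave 0.0016 for H3F3A, and H3F3B became 0.024 with normexp, 0.027 with the mean of its probes and 0.052 with array weights. Without single arrays they ran from -0.076 to 0.23 for H2AFX, from -0.033 to 0.11 for H2AFZ, from -0.17 to 0.046 for H3F3A and from -0.13 to 0.062 for H3F3B. The cause of these changes was not tested. Over all gene values and alternatives, 1411 kept direction and side of the threshold, 113 lost the call, 2 gained one and 27 turned sign.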
